A study of Rattus norvegicus with 12 samples.

Results

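The genes described here encode the Fos and Jun proteins, whose pairs form the transcription factor AP-1, and 2 related factors that pair with Jun proteins, ATF3 and BATF3. The 9 genes Fos, Fosb, Fosl1, Fosl2, Jun, Junb, Jund, Atf3 and Batf3 were taken by name, and 8 of them had a probe on the array, among 15154 genes that could be named. Fosb had no probe. Fosl2 had 2 probes and each other measured gene had 1, and a gene was represented by its brightest probe. The probes were A_64_P131051 (Fos), A_64_P123118 (Fosl1), A_64_P065063 (Fosl2), A_64_P053353 (Jun), A_64_P029805 (Junb), A_64_P119675 (Jund), A_43_P11616 (Atf3) and A_64_P066841 (Batf3). All of them were well above background and unsaturated on all 12 arrays.

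The study exposed primary hippocampal neurons from Wistar rat embryos for 2 h to a lack of oxygen and glucose (OGD), which models ischemia in a dish. The cultures then recovered in conditioned medium for 7 h or 24 h, and control cultures of each time were kept with glucose and oxygen in a matching saline. Each of the groups Ctrl 7 h, OGD 7 h, Ctrl 24 h and OGD 24 h had 3 cultures, and the RNA of each culture was hybridized to 1 Agilent one-color array. A slide carried a control and an OGD array with matching time and number, which took 6 slides. No untreated culture from before the saline was among the arrays, so the controls carry the exchange of medium as well.

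AP-1 proteins share a basic region that touches DNA and a leucine zipper that holds the dimer together. Fos proteins bind DNA only when paired with a Jun protein, whereas Jun proteins can also pair with each other. Many of these genes are immediate early genes, whose transcription starts within minutes of synaptic activity, calcium entry or injury without new protein synthesis. Jun and Atf3 are also known for their induction in neurons after axonal injury, ischemia and other stress.

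After 7 h of recovery, Junb, Atf3 and Batf3 were higher in the OGD cultures by 2.16- to 2.90-fold, and after 24 h Fosl1 and Batf3 were higher by 5.66- and 3.01-fold. Fos, Fosl2 and Jund did not pass the test at either time in the main model. Over the alternative fits their lowest unadjusted p at 24 h was 0.0203, 0.0304 and 0.0361 in limma. A probe was called at the thresholds of the study's methods, an unadjusted p under 0.05 and a fold of at least 2, in a limma model over all 30367 probes. Of the 8 genes, 3 were called higher at 7 h and 2 at 24 h, and none was called lower. The study had itself listed Batf3 as up-regulated at 7 h on these arrays and chose it for qPCR, so its call there is no independent result. The study's lists from these arrays also held Gal, Ccn2 (as Ctgf), Mmp9, Nfil3 and Gadd45g, which are named further below. Over all probes, the calls at 7 h made up 2.08% in the upward and 1.66% in the downward direction, and those at 24 h made up 3.71% and 1.96%. No probe on the array reached an adjusted p under 0.05 in limma in either comparison, the lowest being 0.117 (7 h) and 0.209 (24 h), while 3590 and 4160 probes had an unadjusted p under 0.05. Among these are the calls below, each of which stands on its unadjusted p.

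The promoter of a gene is the sequence on which such factors and their upstream regulators act. The RefSeq annotation of the rat build GRCr8 gave the sequence just upstream of the start site for 6 of the 9 genes (Fosb, Fosl1, Fosl2, Junb, Jund and Batf3). The 250 bases upstream are shown for the genes called at either time, as far as they were given, and for Jund, which was called at neither. Capitals mark TGACG on either strand, the core of the cyclic AMP response element that ATF and CREB factors bind, including the full element TGACGTCA where the cores of both strands overlap.

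Junb (chr19:40080876-40081125, plus strand): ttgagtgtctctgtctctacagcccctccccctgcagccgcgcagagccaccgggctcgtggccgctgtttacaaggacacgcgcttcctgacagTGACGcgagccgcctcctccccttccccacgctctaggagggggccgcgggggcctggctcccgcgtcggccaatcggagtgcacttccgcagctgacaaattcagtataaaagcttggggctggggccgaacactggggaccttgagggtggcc
Fosl1 (chr1:212183635-212183884, plus strand): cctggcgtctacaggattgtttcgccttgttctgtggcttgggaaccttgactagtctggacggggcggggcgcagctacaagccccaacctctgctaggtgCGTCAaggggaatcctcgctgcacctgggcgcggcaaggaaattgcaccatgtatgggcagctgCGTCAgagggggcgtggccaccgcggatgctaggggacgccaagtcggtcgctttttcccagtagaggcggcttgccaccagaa
Batf3 (chr13:105220532-105220781, plus strand): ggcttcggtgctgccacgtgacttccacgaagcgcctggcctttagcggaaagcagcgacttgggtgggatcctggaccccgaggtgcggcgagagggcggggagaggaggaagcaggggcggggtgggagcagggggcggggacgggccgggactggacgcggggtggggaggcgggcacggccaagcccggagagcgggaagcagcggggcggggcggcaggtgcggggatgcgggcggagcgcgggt
Jund (chr16:18769772-18770021, minus strand): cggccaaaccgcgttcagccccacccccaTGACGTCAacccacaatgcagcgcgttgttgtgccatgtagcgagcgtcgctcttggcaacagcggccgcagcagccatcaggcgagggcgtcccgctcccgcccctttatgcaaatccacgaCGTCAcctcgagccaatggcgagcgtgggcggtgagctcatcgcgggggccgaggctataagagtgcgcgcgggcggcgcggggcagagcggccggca

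Junb held 1 such core, starting 155 bases before the start site, and Fosl1 held 2, starting 148 and 84 bases before it. Batf3 held none in this window, and 75.2% of its bases were G or C. Jund held the full element 221 bases before the start site and a further core 98 bases before it. The core was found in 18.2% and the full element in 1.59% of the 33469 promoter windows of the same length in the genome. The AP-1 site itself, TGANTCA on either strand, was in 6.34% of all windows and in none of the 6 given here. These matches are of letters only. In the same annotation Atf3 and Batf3 are direct neighbors on their chromosome, with 0 genes starting between them.

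The values below are log2 intensities from which the median of the array was subtracted, so that 1 unit is a 2-fold difference within 1 probe. Values of different probes are not on a common scale, and only values of the same probe are compared.

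Junb, a Jun protein with weaker transactivation than Jun, had the lowest unadjusted p of the 8 genes at 7 h. It was at 6.25, 6.08 and 6.33 in the Ctrl 7 h cultures (replicates 1, 2 and 3) and at 7.51, 7.50 and 7.09 in the OGD 7 h cultures. All 3 OGD cultures were above all 3 controls, and the OGD culture was higher on each of the 3 slides, by 1.27, 1.42 and 0.76. The difference was 1.15 on the log2 scale (SE 0.26, 95% confidence interval 0.57 to 1.73, 2.22-fold), with an unadjusted p of 0.00126 and an adjusted p of 0.226 in limma. After 24 h Junb was at 7.29, 6.63 and 6.17 in the controls and at 6.37, 6.40 and 6.63 after OGD. The groups overlapped, and the difference was -0.23 (SE 0.26, 95% confidence interval -0.81 to 0.36, unadjusted p = 0.405 in limma). The difference between the effects at 24 h and at 7 h was tested as an interaction and was -1.38 (SE 0.37, unadjusted p = 0.00379 in limma). Its adjusted p was 1.00, and 3.58% of all probes had an unadjusted p under 0.05 in this interaction. Of the 8 genes Junb was the one under that threshold, and the unadjusted p of the other 7 lay between 0.0979 and 0.940.

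Atf3, a stress-induced factor of the ATF/CREB family that can pair with Jun proteins, was at 4.60, 4.08 and 4.14 in the Ctrl 7 h cultures and at 5.89, 5.25 and 5.02 in the OGD 7 h cultures. The groups did not overlap, and the OGD culture was higher on each slide, by 1.29, 1.17 and 0.88. The difference was 1.11 (SE 0.35, 95% confidence interval 0.33 to 1.89, 2.16-fold), with an unadjusted p of 0.00951 and an adjusted p of 0.290 in limma. Without OGD 7 h replicate 1, the highest of the 3, it was 0.86, which is under 2-fold (unadjusted p = 0.0446). At 24 h Atf3 was at 3.65, 3.51 and 2.94 in the controls and at 4.72, 3.68 and 3.54 after OGD. The difference of 0.61 (SE 0.35, 95% confidence interval -0.16 to 1.39) did not pass the test (unadjusted p = 0.110 in limma), and 1 OGD culture stood above the rest. With the slide as a fixed block in limma, the same difference had an SE of 0.23 and an unadjusted p of 0.0344. At under 2-fold it was not called there either.

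Batf3, a BATF protein best known from the development of dendritic cells, was called at both times. At 7 h it was at -1.33, -1.13 and -0.62 in the controls and at 0.76, 0.19 and 0.58 after OGD. The difference was 1.53 (SE 0.52, 95% confidence interval 0.39 to 2.68, 2.90-fold), with an unadjusted p of 0.0131 and an adjusted p of 0.314 in limma. Neither group reached the other, and the slides differed by 2.09, 1.32 and 1.20. At 24 h Batf3 was at -2.55, -3.25 and -2.88 in the controls and at 0.14, -1.75 and -2.30 after OGD. The OGD values were again all above the controls, by 1.59 on average (SE 0.52, 95% confidence interval 0.45 to 2.73, 3.01-fold, unadjusted p = 0.0108 and adjusted p = 0.290 in limma). The probe was dim in the Ctrl 24 h cultures, at 32.0, 23.1 and 28.6 intensity units, against 82.8, 52.4 and 48.3 units after OGD.

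**Figure D1:**
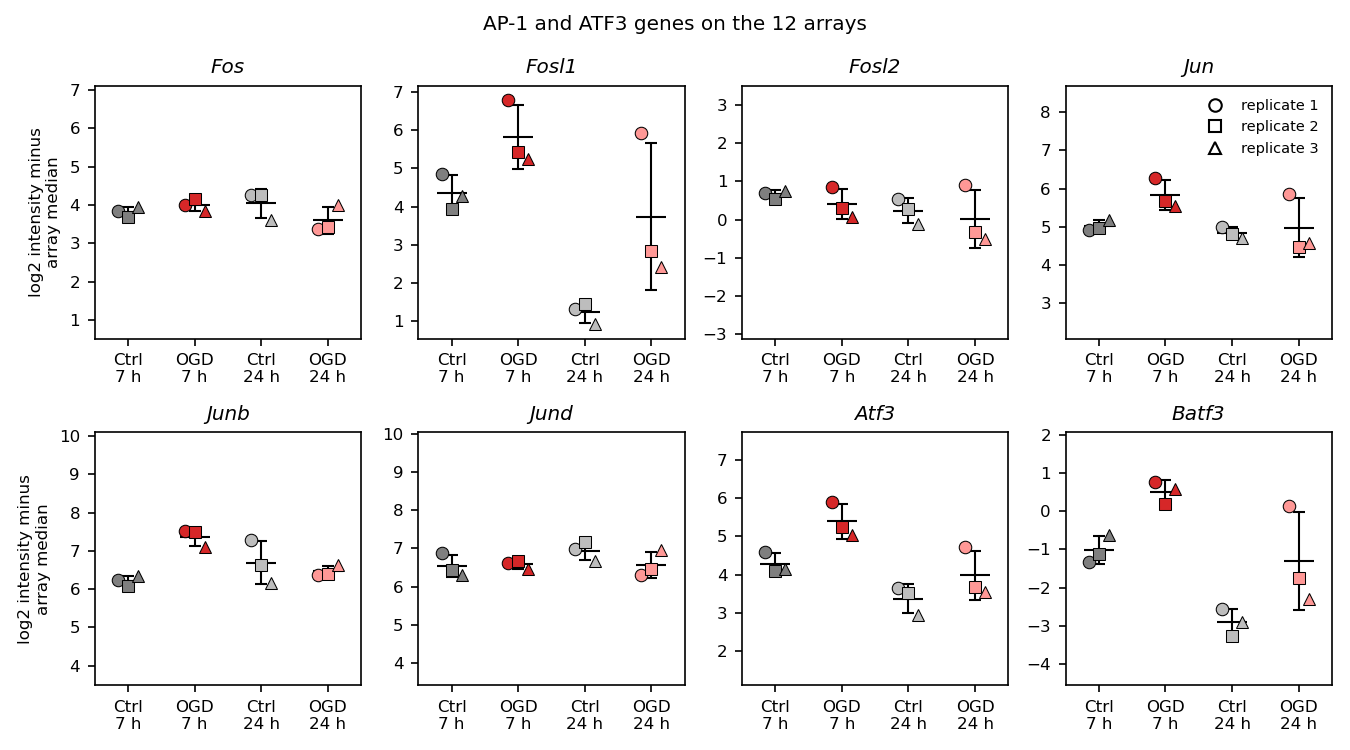
Log2 intensity minus the array median (y axis, the same span of units in each panel) of the 8 measured genes on the 12 arrays, by group (x axis); points are single cultures, the horizontal bars are group means and the error bars are SDs of 3 cultures. Fosl1 and Batf3 are lower in the 24 h controls than in the 7 h controls, and OGD 24 h replicate 1 lies above the other OGD 24 h cultures for Fosl1, Batf3, Jun, Atf3 and Fosl2.

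Fosl1 encodes FRA-1, a Fos protein without the transactivation domain of Fos that accumulates late after stimulation. It had the widest spread of the 8 genes over the 12 arrays, from 0.92 to 6.78. At 7 h it was at 4.85, 3.92 and 4.28 in the controls and at 6.78, 5.42 and 5.24 after OGD. All OGD cultures were above all controls, by 1.92, 1.50 and 0.95 on the 3 slides. The difference of 1.46 (SE 0.78, 95% confidence interval -0.26 to 3.18) did not pass the test in the model of all groups (unadjusted p = 0.0886 in limma). It passed where limma was fitted to the 7 h arrays alone (unadjusted p = 0.0174). The model of all groups shares 1 estimate of the spread, and the SD of Fosl1 was 1.92 in the OGD 24 h cultures against 0.28 to 0.84 in the other groups. At 24 h Fosl1 was at 1.32, 1.46 and 0.92 in the controls and at 5.93, 2.85 and 2.42 after OGD. The difference was 2.50 (SE 0.78, 95% confidence interval 0.78 to 4.22, 5.66-fold), with an unadjusted p of 0.00862 and an adjusted p of 0.284 in limma.

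The 24 h values of Fosl1 and Batf3 rest in part on OGD 24 h replicate 1. That array had the lowest median signal of the 12, 131 intensity units against 374 and 546 in the other OGD 24 h cultures and 234 to 660 over the remaining arrays. The summed level of 11 neuron markers without a saturated spot was also lowest there, at 7.23 against 8.21 to 9.32 on the other 11 arrays. Without it the difference was 1.40 for Fosl1 (unadjusted p = 0.0114 in limma), which was still called, and 0.87 for Batf3 (unadjusted p = 0.0163), under 2-fold and no longer called. The 2 remaining OGD cultures were above all 3 controls for both genes. With the methods' t-test, which does not share the spread across genes, neither was called at 24 h (unadjusted p = 0.0892 for Fosl1 and 0.106 for Batf3), while Junb, Atf3 and Batf3 were called at 7 h as in limma.

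Jun, the strongest transactivator of the Jun proteins and the substrate of the JNK kinases, was at 4.92, 4.97 and 5.19 in the Ctrl 7 h cultures and at 6.28, 5.68 and 5.54 in the OGD 7 h cultures. The groups did not overlap and the difference had an unadjusted p of 0.0406 in limma, but at 0.80 (SE 0.35, 95% confidence interval 0.04 to 1.57, 1.75-fold) it was under 2-fold and not called. At 24 h Jun was at 5.00, 4.81 and 4.71 in the controls and at 5.87, 4.48 and 4.58 after OGD. One OGD culture was above and the other two were below all controls, and the difference of 0.13 (SE 0.35, 95% confidence interval -0.63 to 0.90) did not pass the test (unadjusted p = 0.704 in limma).

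Fos, the founding member of the family and a common marker of recent neuronal activity, was at 3.83, 3.67 and 3.95 in the Ctrl 7 h cultures and at 4.0, 4.16 and 3.83 in the OGD 7 h cultures. At 24 h it was at 4.26, 4.26 and 3.6 in the controls and at 3.36, 3.42 and 4.01 after OGD. Groups overlapped at both times. The differences were 0.18 (95% confidence interval -0.36 to 0.71, unadjusted p = 0.481 in limma) and -0.44 (95% confidence interval -0.98 to 0.09, unadjusted p = 0.0946). In this model the intervals leave out a 2-fold change in either direction, at 24 h only narrowly for a decrease. With another background correction (normexp) the 24 h value was -0.79 (SE 0.44). In a normexp fit without spots far under their local background it was -0.57 (SE 0.25, unadjusted p = 0.0445 in limma), which is under 2-fold. With arrays scaled to a spike-in probe it was -1.47, with an SE of 1.12 that was the same for each measured gene. Those values do not leave out a 2-fold decrease.

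Jund, which is present in most cells without stimulation, was at 6.87, 6.43 and 6.31 in the Ctrl 7 h cultures and at 6.63, 6.68 and 6.45 in the OGD 7 h cultures, a difference of 0.05 (95% confidence interval -0.46 to 0.57, unadjusted p = 0.825 in limma). At 24 h it was at 6.99, 7.16 and 6.66 in the controls and at 6.30, 6.47 and 6.95 after OGD, a difference of -0.37 (95% confidence interval -0.88 to 0.15, unadjusted p = 0.144). In this model these intervals also leave out a 2-fold change. The 24 h value was -0.80 (SE 0.49) with normexp, and -0.53 (SE 0.27) in the normexp fit without spots far under their local background. With the spike-in scaling it was -1.39 (SE 1.12). These values do not leave out a 2-fold decrease.

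Fosl2, which encodes FRA-2, was at 0.69, 0.54 and 0.74 in the Ctrl 7 h cultures and at 0.85, 0.31 and 0.06 in the OGD 7 h cultures. At 24 h it was at 0.53, 0.27 and -0.11 in the controls and at 0.90, -0.33 and -0.51 after OGD. The differences were -0.25 (95% confidence interval -1.04 to 0.53, unadjusted p = 0.489 in limma) and -0.21 (95% confidence interval -1.0 to 0.57, unadjusted p = 0.561). A 2-fold decrease lies at the edge of both intervals. The second Fosl2 probe, A_64_P050851, differed by 0.14 and -0.19, and neither value passed the test (unadjusted p = 0.664 and 0.561 in limma).

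**Figure D2:**
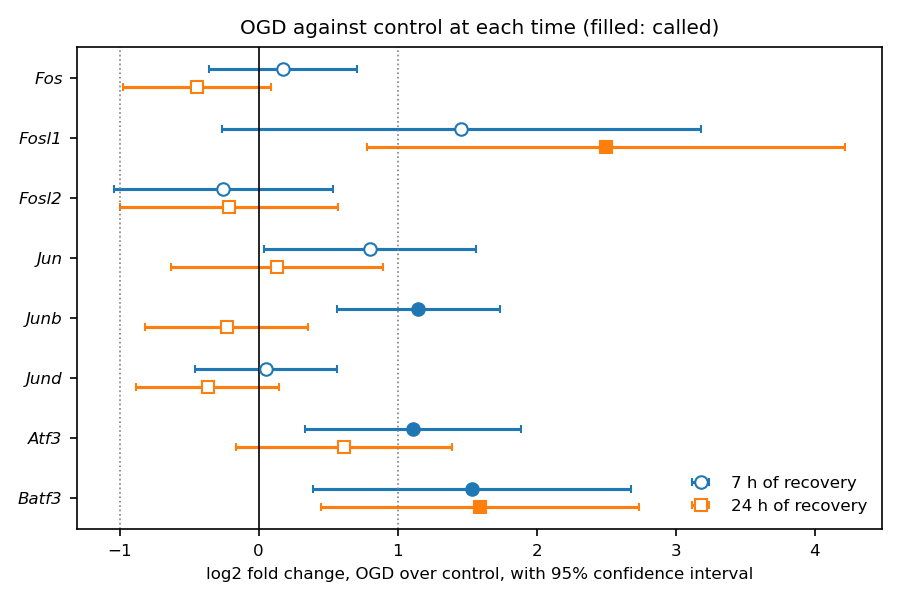
Log2 fold change of OGD over control (x axis) with its 95% confidence interval from limma for the 8 measured genes (y axis), at 7 h (circles) and 24 h (squares) of recovery; filled symbols were called and dotted lines mark 2-fold. Junb is called at 7 h alone, at 1.15, with a 24 h value of -0.23, whereas Batf3 is called at both times.

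Read over the group, 5 of the 8 genes (Fosl1, Jun, Junb, Atf3 and Batf3) had all 3 OGD cultures above all 3 controls at 7 h, against 10.6% of all probes. At 24 h this held for 2 of 8 (Fosl1 and Batf3), against 10.9% of all probes. The median difference of the 8 genes was 0.96 at 7 h and -0.04 at 24 h, beside -0.06 and 0.01 over all probes. At 24 h, 4 of the 8 differences were above 0. The calls of Junb and Atf3 at 7 h lie close to the 2-fold threshold, and the calls depend on the background correction. With normexp, the other correction planned, none of the 8 genes was called at 7 h (Junb at 0.55, unadjusted p = 0.277, Atf3 at 0.56, unadjusted p = 0.199, and Batf3 just under 2-fold, unadjusted p = 0.0153, in limma). At 24 h Fosl1 was called under it, at 1.96, and Batf3 was not, at 0.75, while the interaction of Junb was -1.18 (unadjusted p = 0.109 in limma). That fit was set on 2 arrays by a few spots far under their local background, and a fit without them was added after the data were seen. In it Junb and Atf3 were at 0.99 and 0.97 at 7 h, each with an unadjusted p under 0.05 but under 2-fold, Batf3 was still called at 1.11, and Fosl1 was called too, at 1.33. Batf3 was at 0.78 at 24 h in that fit and was not called, and the interaction of Junb was -1.35 (unadjusted p = 0.00304 in limma). With arrays scaled to the 1 usable spike-in probe, the median of all probes was -0.85 at 7 h and -1.02 at 24 h. None of the 8 genes was then called, and those called in the main model kept positive differences of 0.31 to 1.47. Under this scaling the SE was 1.12 for each of the 8 genes at both times, so differences of that size could not pass the test. The absence of calls there is therefore no result about these genes.

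The 7 h and 24 h cultures lay on different slides, so that a difference between the 2 control groups cannot be told apart from a difference between slides. The comparison was added after the data were seen. Fosl1 was lower in the Ctrl 24 h than in the Ctrl 7 h cultures by 8.69-fold (log2 -3.12, SE 0.78, unadjusted p = 0.00220 and adjusted p = 0.128 in limma), which placed it at rank 30343 of 30367 probes from the highest to the lowest difference. Batf3 was lower by 3.66-fold (log2 -1.87, SE 0.52, unadjusted p = 0.00422 and adjusted p = 0.157). Both were called, against 4.1% of all probes called lower and 0.83% called higher, and Atf3 was lower by 1.88-fold (log2 -0.91, SE 0.35, unadjusted p = 0.0259) and was not called. In both normexp fits Batf3 was at -0.92, under 2-fold and not called. With the spike-in scaling the values were -7.69 for Fosl1, -6.44 for Batf3 and -5.48 for Atf3, which was then called. That scaling subtracts 1 value per array, so it moved all probes of this comparison down alike. The added fall is therefore not particular to these genes. With the array median, the other 5 genes differed by -0.43 to 0.48. For Fosl1 the OGD 24 h cultures 2 and 3, at 2.85 and 2.42, were thus above their own controls and below all 3 controls of 7 h.

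Each slide held 1 control and 1 OGD culture of the same number, and the difference within the slide is given for all genes. At 7 h the OGD culture was higher on 3 of 3 slides for Fosl1, Jun, Junb, Atf3 and Batf3, and on 2 slides for Fos and Jund. At 24 h it was higher on 3 of 3 slides for Fosl1, Atf3 and Batf3 and on 1 slide for the other 5 genes. That 1 slide was replicate 1 for Jun and Fosl2 and replicate 3 for Fos, Junb and Jund. The arrays of a slide were scanned at different times for replicates 1 and 2 at 7 h and for replicate 1 at 24 h.

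**Figure D3:**
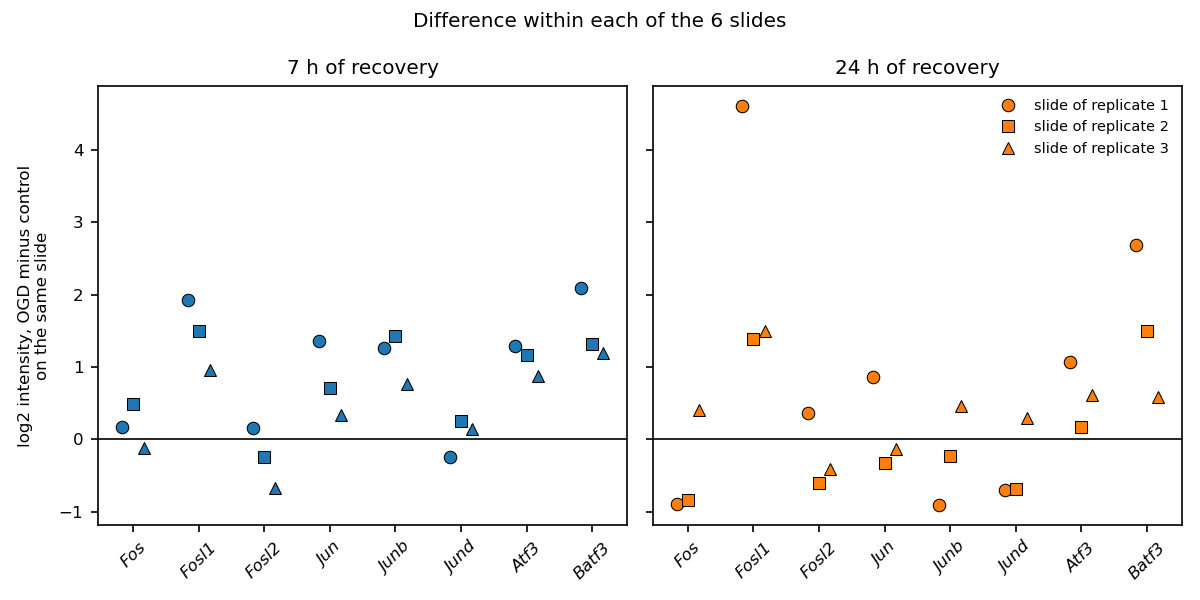
Difference between the OGD and the control culture of the same slide (y axis, log2 intensity) for the 8 measured genes (x axis), at 7 h (left) and 24 h (right) of recovery; each symbol is 1 of 3 slides per time. Fosl1 on the 24 h slide of replicate 1 has the largest difference, 4.61, with 1.39 and 1.50 on the other 24 h slides.

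In cultures of mixed cells, fewer cells of a type and less RNA per cell cannot be told apart. All 12 neuron markers and all 8 astrocyte markers (Gfap and Aqp4 among them) were well above background on all 12 arrays, so that astrocyte RNA was measured beside neuron RNA in cultures labelled as neurons. The levels below are the log2 of the summed centred intensities of a list, so that its brightest probes weigh most. Each sum holds the same probes on all arrays, and sums of different lists are not compared. Without a place in them are 1 neuron marker (Stmn2) and 3 astrocyte markers (Aldoc, Slc1a3 and Aqp4) that were saturated on 1 or more arrays. These markers were left out once saturation had been noticed. The neuron sum ranged from 8.63 to 9.04 in the Ctrl 7 h and from 8.21 to 8.77 in the OGD 7 h cultures, where Slc17a7 was called lower. At 24 h the ranges were 8.67 to 9.32 and 7.23 to 8.77, and 4 of the 12 markers (Syt1, Slc17a7, Gad1 and Gad2) were called lower. The astrocyte sum was 8.15 to 8.31 in the Ctrl 7 h and 8.14 to 8.57 in the OGD 7 h cultures, and 7.97 to 8.72 and 7.46 to 8.79 at 24 h, with 0 of 8 markers called. The microglia sum was 3.55 to 3.81 and 3.79 to 4.57 at 7 h, and 4.22 to 4.52 and 4.40 to 4.96 at 24 h. Of the 8 microglia markers, 5 were well above background on all 12 arrays, while Ptprc was so on no array. The vascular and fibroblast sum was 5.07 to 7.10 and 5.78 to 7.48 at 7 h, and 4.88 to 7.07 and 6.94 to 7.83 at 24 h. The sum of the oligodendrocyte lineage markers was 7.72 to 7.81 and 6.76 to 7.95 at 7 h, and 7.98 to 8.43 and 8.18 to 8.90 at 24 h. Outside the neuron list, the markers called were Cx3cr1 (microglia, higher), Cspg4 (oligodendrocyte lineage, lower) and Cldn5 (vascular, lower), all at 7 h. Cldn5 was not well above background in any OGD 7 h culture, and was at least 1.17-fold lower there. The part of these levels in the values of the AP-1 and ATF3 genes was not tested.

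The related factors and kinases are counted beside the shares over all probes, which at 7 h and 24 h were 2.08% and 3.71% called higher and 1.66% and 1.96% called lower. Of 31 measured bZIP factors other than the 9 genes (the family defined by the same zipper), 1 was called higher at 7 h, Maff, a small Maf protein without a transactivation domain, by 1.46 (SE 0.57, unadjusted p = 0.0267 in limma). At 24 h Nfil3, a transcriptional repressor, was called lower, by -1.17 (SE 0.29), and Maff was at 1.07 and not called. The median of this list was -0.02 at 7 h and -0.03 at 24 h. Of 31 measured kinases and factors upstream of AP-1, such as the MAP kinases and the ternary complex factors, 0 were called at 7 h and 1 at 24 h. That one was Mapk10, the neuronal JNK3, which was lower by 2.06-fold (log2 -1.04, SE 0.26, unadjusted p = 0.00244 in limma). The list's median was -0.03 at 7 h and -0.22 at 24 h. Without Ctrl 7 h replicate 2 or OGD 7 h replicate 1, 0 bZIP factors were called at 7 h. At 24 h 0 were called without OGD 24 h replicate 1 and 4 without OGD 24 h replicate 3. Of the kinases, 0 were called at 24 h without Ctrl 24 h replicate 1 or OGD 24 h replicate 1, 6 without OGD 24 h replicate 2 and 3 without OGD 24 h replicate 3. With 75th-percentile centring or quantile normalization 0 kinases were called at 24 h. Normexp as planned gave 4 kinases and 2 bZIP factors at each time, and the methods' t-test 0 bZIP factors at 7 h.

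A further list held 40 genes reported elsewhere as targets of AP-1 or ATF3. Of 38 measured, 8 rose and 2 fell past the thresholds at 7 h, and at 24 h 13 rose and 3 fell, with medians of 0.49 and 0.40. Plau, the secreted protease urokinase, was higher by 4.76-fold at 7 h and by 9.03-fold at 24 h, where it was above background on 2 of 3 Ctrl 24 h arrays. Gal, the neuropeptide galanin, was higher by 8.58-fold at 7 h and 5.53-fold at 24 h. Il6, a cytokine, was not well above background in any control culture and was at least 3.29-fold higher at 7 h, while at 24 h only 1 of 3 OGD cultures measured it. Ccl2, a chemokine for monocytes, was higher by 4.53-fold at 24 h, and at 7 h its value of 1.36 (SE 0.72) did not pass the test.

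The target genes called lower were chosen after their values were seen. At 7 h these were Mmp9, a matrix protease, at -2.12 (SE 0.53), and the enkephalin precursor Penk, at -1.01 (SE 0.45). Mmp9 was above background on 1 of 3 OGD 7 h arrays. At 24 h they were Mmp9 at -1.19 (SE 0.53), the urea cycle enzyme Arg1 at -1.09 (SE 0.37) and the prostaglandin synthase Ptgs2 at -1.08 (SE 0.25). Leaving out either culture of the replicate 1 slide at 24 h lowered the target genes called there from 16 to 9, and leaving out Ctrl 7 h replicate 1 or 2 lowered those called at 7 h from 10 to 6. With the methods' t-test 7 target genes were called at 7 h and 7 at 24 h. Normexp as planned gave 6 and 8, and the spike-in scaling 2 and 2.

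The 26 other immediate early genes, all measured, gave 5 upward calls and 1 downward call at 7 h, and 3 upward and 4 downward calls at 24 h, with medians of 0.41 and -0.50. Ccn2 and Ccn1, matrix-associated growth regulators, were higher at both times, by 2.14 (SE 0.77) and 1.68 (SE 0.52) at 7 h and by 3.29 (SE 0.77) and 1.66 (SE 0.52) at 24 h. Ier3, a stress response gene, was higher by 1.44 (SE 0.33) and 1.31 (SE 0.33). The transcription factors Klf4 and Myc were higher at 7 h, by 1.40 (SE 0.55) and 1.23 (SE 0.30), and at 24 h were at 1.08 and 0.90 and not called. Those called lower were Egr4 at both times, at -1.22 (SE 0.34) and -1.03 (SE 0.34), and at 24 h the nuclear receptors Nr4a1, Nr4a2 and Nr4a3, at -1.04, -1.07 and -1.10 (chosen after their values were seen). At 7 h the nuclear receptors were at 0.80, 0.28 and 0.79 and did not pass the test. Leaving out either culture of the replicate 1 slide at 24 h lowered the 24 h calls of this list from 7 to 3. They also depended on the processing, with 4 under 75th-percentile centring or quantile normalization and 2 under the methods' t-test. Normexp as planned gave 9 and the spike-in scaling 2.

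**Figure D4:**
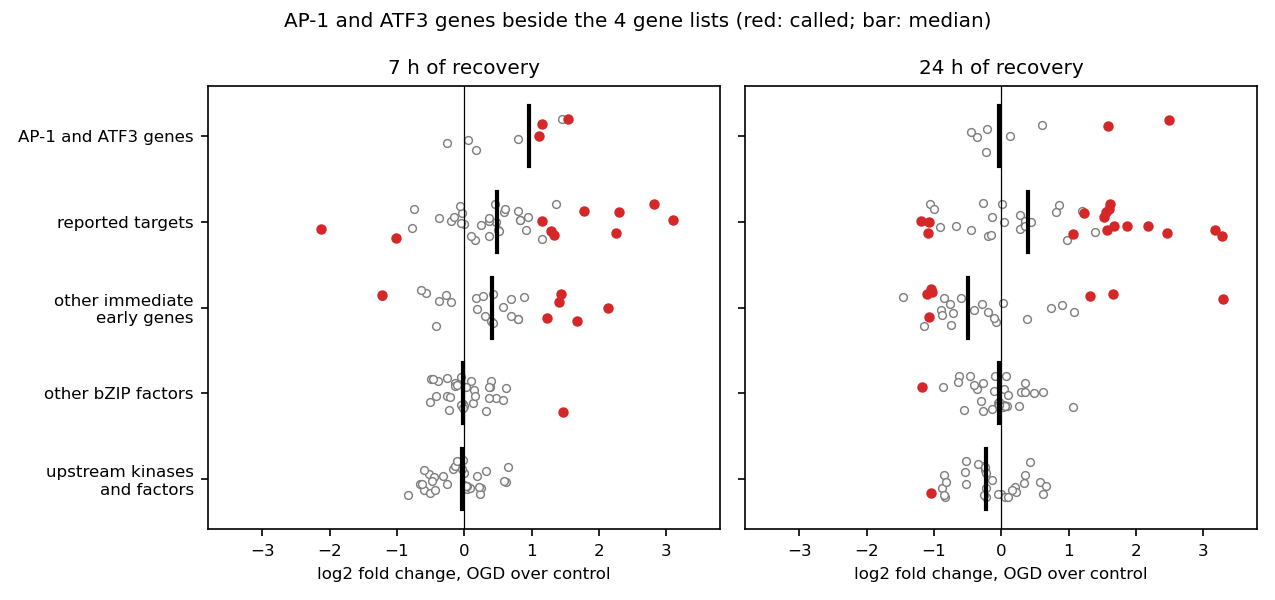
Log2 fold change of OGD over control (x axis) at 7 h (left) and 24 h (right) for the 8 AP-1 and ATF3 genes and the 4 gene lists (y axis); each point is 1 gene, red points were called, and bars are medians. The medians of the AP-1 and ATF3 genes and of the other immediate early genes are above 0 at 7 h (0.96 and 0.41) and below 0 at 24 h (-0.04 and -0.50), while the reported targets stay above 0 (0.49 and 0.40); Il6 is drawn at its fitted value.

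For Atf3, Junb and Batf3, the genes whose values ran closest to theirs over the 12 arrays were sought among 10898 named genes, by the root-mean-square (RMS) difference after each gene's mean was subtracted. This measure describes the 12 arrays and carries no test. Closest to Atf3 was Gadd45g, a stress-induced growth arrest gene, at an RMS difference of 0.24 beside 0.82 for the spread of Atf3 itself. The next were Polr1g, a subunit of RNA polymerase I, Rnd3, a small GTPase, the transcription factor Sox11 and Gtpbp4, a ribosome assembly factor, at 0.25 to 0.28. Gadd45g differed by 1.03 at 7 h and 0.74 at 24 h, beside 1.11 and 0.61 for Atf3.

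Closest to Junb was Gsg1 at 0.19, beside a spread of 0.50, followed by the cap-binding factor Eif4e3, the kinase Rock2, the Wnt agonist Rspo3 and the histone demethylase Kdm6b at 0.25 to 0.27. All 5 differed by 0.76 to 1.05 at 7 h and by -0.43 to -0.02 at 24 h. Closest to Batf3 was Plaur, the urokinase receptor, at 0.23 beside a spread of 1.34. Then came Hbegf, a ligand of the EGF receptor, Arhgap22, the cytokine receptor Tnfrsf12a and the hyaluronan synthase Has2, at 0.38 to 0.44. Plaur differed by 1.29 at 7 h and 1.60 at 24 h, beside 1.53 and 1.59 for Batf3. Among the 8 genes themselves, Fos and Jund were the pair with the smallest RMS difference, 0.22, beside spreads of only 0.29 and 0.27 for these genes. Their small difference thus says little about a shared pattern. Fosl1 and Jund were the pair with the largest, 2.04, beside a spread of 1.88 for Fosl1.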

How the data were processed

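RNA of 12 cultures, 3 in each group, was labeled with Cy3 and hybridized to one-color Agilent arrays. The deposited intensity of each spot was made by the authors with Feature Extraction 10.5.1.1, which subtracts background and corrects spatial trends. The authors also deposited log2 values, which differed from these intensities by 1 constant per array after their median centring. The depth of an array has no count, and precision is set by the 3 cultures per group. Nothing in the labels pairs cultures of one number beyond the slide.

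Spots marked as outliers were left out, log2 was taken, spots of a probe were averaged, and each array was centred on the median of its 30367 non-control probes. Probes were named through RefSeq accessions (18004 with 1 symbol, 0 with several, 12363 with none). The 4 groups were fitted in 1 model with limma 3.58.1 in R 4.3.3. P-values are two-sided, with Benjamini-Hochberg adjustment over all probes, and measure the spread between these cultures. The 9 genes and the gene lists were chosen with earlier results of these data known. All 9 genes are named. From each list up to 5 genes with the largest absolute difference among those called at either time are named (1 of these genes is counted in its list but not reported here by name), and the 5 most similar genes of Atf3, Junb and Batf3. A gene not above background in any culture of 1 group was given a bound, set against the lowest signal called well above background on each array.

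Other scalings were the 75th percentile, quantiles and the spike-in probe (1 of 10 was usable). Further alternatives were normexp with an offset of 50, a fit without dim probes, a fit to the authors' log2 values, the methods' t-test, a limma fit per time, slide blocks (fixed and random), averaging the probes of a gene, and leaving out each of the 12 arrays. Normexp was run on the median spot signal, as the mean signal was not among the columns used. A normexp fit without spots more than 10 units under their local background was added after the data were seen.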

Additional observations from a re-analysis of the deposited data

Results flagged for a closer look

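In the model of all groups Junb had an interaction of -1.38 on the log2 scale (SE 0.37, unadjusted p = 0.00379 and adjusted p = 1.00 in limma). Over all probes, 3.58% had an unadjusted p under 0.05 in it. With normexp as planned the interaction was -1.18 (unadjusted p = 0.109 in limma), and -1.35 (unadjusted p = 0.00304) without the spots under background. With the spike-in scaling it was -1.61 (SE 1.59, unadjusted p = 0.311 in limma). Junb was higher after OGD on 3 of 3 slides at 7 h and on 1 of 3 at 24 h, and with each array left out in turn the interaction lay between -1.64 and -1.08. The largest move came without Ctrl 24 h replicate 1, the highest of the 24 h controls at 7.29.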

How the results depend on the processing

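Genes called of the 8 are given here as counts. Scaling to the spike-in probe gave 0 at 7 h, 0 at 24 h and 0 interactions, against 3, 2 and 1 in the values reported. The SE was 1.12 for each of the 8 genes at both times there, so these counts are no result about the genes. The same scaling turned Fos (-0.62) and Jund (-0.74) at 7 h and Jun (-0.89) and Atf3 (-0.41) at 24 h, none of them called. Normexp as planned gave 0, 1 (Fosl1) and 0, with Fos at -0.38 and Jund at -0.48 at 7 h and Jun at -0.28 at 24 h. On OGD 7 h replicate 3 and OGD 24 h replicate 1 that fit was set by 7 and 5 spots far under their local background, with a fitted background of -412 and -113 units against -4.53 to 0.35 on the other 10 arrays. Without these spots it gave 2, 1 (Fosl1) and 1, with Fos at -0.0010, Jund at -0.043 and Jun at -0.0073. Quantile normalization turned Jund at 7 h (-0.0059), and the methods' t-test gave 0 at 24 h. Over the 12 fits that left out 1 array, the counts ranged from 2 to 4 at 7 h, from 1 to 2 at 24 h and from 1 to 2 for the interaction. Without Ctrl 24 h replicate 3 or OGD 24 h replicate 3 Fos joined Junb in the interaction, and without OGD 24 h replicate 1 Jun did. The uncalled values that changed sign there ranged from -0.062 to 0.22 for Jund at 7 h, and at 24 h from -0.49 to 0.066 for Junb, from -0.31 to 0.38 for Jun and from -0.65 to 0.052 for Fosl2. In no alternative did a called gene change sign. The spike-in scaling subtracts 1 value per array, so it moved all genes of a comparison alike. The sign changes under it are therefore not particular to these genes. Why the spike-in signal differed between arrays was not tested.

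Cultures of the same number shared a slide, but their deviations correlated by -0.05, 0.11 and -0.01 at 7 h and by 0.08, 0.17 and -0.01 at 24 h. The numbers were not taken to pair the cultures in the main model. With so few cultures per group, these correlations cannot settle whether a number marks a shared preparation. With the slide as a fixed or random replicate block the counts were 3, 2 and 1, with the same genes called. Over all probes, 1136 were called at 7 h and 1721 at 24 h, 353 and 538 with the spike-in scaling, 2918 and 743 with normexp, 538 and 743 with normexp without the spots under background, and 808 and 634 with the methods' t-test. After Benjamini-Hochberg adjustment of that test, 1 probe at 7 h and 0 at 24 h were under 0.05, with a lowest adjusted p of 0.178 at 24 h. Leaving out 1 array gave 664 to 1750 at 7 h and 814 to 3045 at 24 h.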
